A study of Bos taurus with 35 samples.

Results

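The macrophage marker genes described here are *CD14*, *CD163*, *CSF1R*, *MRC1*, *C1QA*, *C1QB*, *C1QC* and *MSR1*, which are 8 of the 27607 genes in the count table. They are those of 10 candidate macrophage genes that carry a symbol in the study's own lists of differentially expressed (DE) genes, matched to the counts by Ensembl ID. The other candidates, *CD68* and *AIF1*, have no symbol in the copy of these lists read here, which lacks 257 rows, and were not analysed here. All 8 were chosen by measured values, namely a lower level at 72 h than at 0 h, and 6 of them (all but *CD14* and *MRC1*) also by a lower level at 48 h. Their changes against 0 h are therefore a description of how they were chosen, with no test and no weight as evidence.

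The samples were cores of beef *longissimus thoracis et lumborum*, the large muscle along the back, from the left carcass sides of 7 British and Continental crossbred heifers kept in a refrigerated drip cooler. Each carcass was sampled first at 45 min after death, which is called 0 h, and then at the *post-mortem* times 6, 24, 48 and 72 h, which gave 35 RNA-Seq libraries paired by animal. The 0 h cores are the baseline, no core was taken from a live animal, and each animal stands once at each time point. Total counts per library ranged from 20568418 to 104275821, with a median of 40133660.

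Macrophages are phagocytic leukocytes that reside in most tissues. In skeletal muscle they lie in the connective tissue between the fibres, where they clear debris and take part in repair. They are known by receptors that bind and engulf material, by the receptor for their growth factor, and by the complement protein C1q, which they make in large part. Whole muscle was sequenced, so fewer macrophages and less RNA per macrophage cannot be told apart in these data.

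Muscle fibre genes were abundant, as fits the labelled tissue. The 4 muscle fibre genes with a symbol (*CKM*, *TNNT1*, *TNNT3* and *TNNC2*, of 11 on the list) together took from 31848 to 38476 CPM (the count per 1e+06 counts of the library, after TMM normalization) at 0 h. The 8 macrophage genes together took 0.00145% to 0.0164% of the counts of a library. All 8 passed the filter on low counts, which kept 14630 genes. Their raw counts ranged from 14 to 315 per library for *MSR1*, the least abundant, and from 51 to 1641 for *MRC1*.

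No fitted change of the 8 genes met the DE threshold up to 24 h, and the levels were lower at 48 and 72 h. *MRC1* had the lowest fitted level of the 8 at 24 h, 71.5% of that at 0 h, beside 81.9% for *MSR1* and 82.9% for *CSF1R*. At 48 h *MRC1* was at 67.6%, beside 70.3% for *CD14*. Summed over the 8 genes, the level was 99.9 ± 36.3 CPM at 0 h (SD, n = 7), with 91.7 ± 24.7 CPM found at 6 h and 87.2 ± 14.8 CPM at 24 h. The sum was then down to 55.5 ± 14.8 CPM by 48 h and 35.1 ± 12.3 CPM by 72 h. Against the first core, the 8 genes had a median log2 fold change of -0.08 after 6 h, -0.11 after 24 h, -0.90 after 48 h and -1.55 after 72 h. The same median over all genes tested lay between -0.0048 and 0.014.

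**Figure D1:**
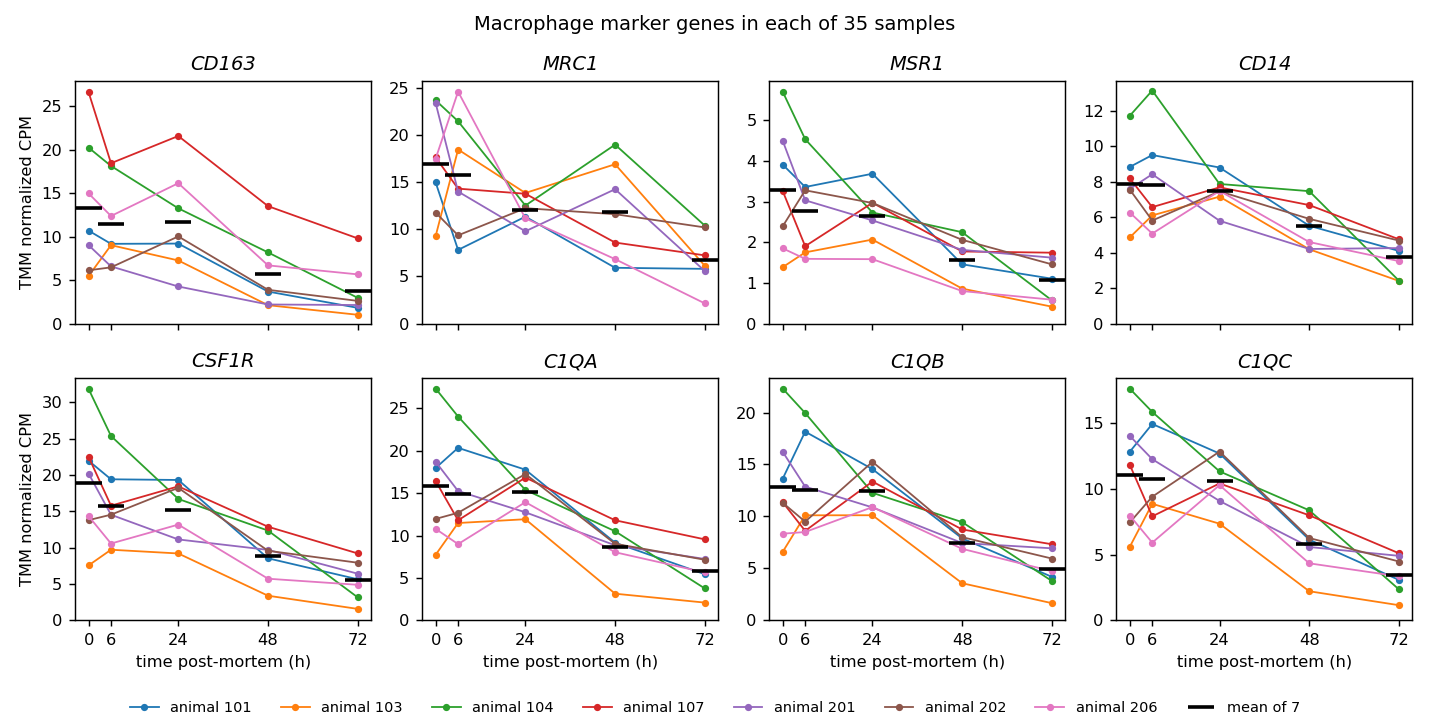
TMM normalized CPM (y axis, from 0, one scale per gene) of the 8 macrophage marker genes against time post-mortem in hours (x axis), with 1 line per animal and a black bar for the mean of the 7 animals. The lines cross and move both ways up to 24 h, and all 7 end below their 0 h value at 72 h for every gene; *MRC1* keeps its mean from 24 h (12.1) to 48 h (11.9).

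With DE taken as a false discovery rate (FDR) below 0.05 together with more than a 1.5-fold change, none of the 8 genes was DE at 6 h or 24 h, where 0.185% and 0.95% of all genes tested were downregulated. None of them reached an unadjusted p of 0.05 in edgeR at either time, and DESeq2 and limma called none as well. At 48 h 6 of the 8 were downregulated, beside 6.3% of all genes, and at 72 h all 8 were, beside 15.4%. At 48 h 7 genes were lower in all 7 animals, beside 14% of all genes. Since these contrasts chose the genes, nothing is read from these counts. At 48 h *CD14* (log2 fold change -0.51) missed the fold change threshold only. *MRC1* (-0.57) missed both limits, with an edgeR FDR of 0.062. Of the 6 genes called, *C1QB* had the smallest change (-0.76).

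Among the scavenger and endocytic receptors, *CD163* (ENSBTAG00000019669) showed the largest decrease of the 8. It encodes the receptor by which macrophages take up haemoglobin bound to haptoglobin. The 7 animals spanned 5.46 to 26.6 CPM around a median of 10.7 at 0 h, and 4.26 to 21.6 CPM around 10.01 by 24 h. The span was 2.11 to 13.5 CPM around 3.88 by 48 h, and 1.004 to 9.79 CPM around 2.603 by 72 h. Animal 107 was the highest at all 5 time points, and its value at 72 h was still above the lowest values at 0 h, so the groups overlap although every animal fell. The fitted log2 fold change was -1.29 at 48 h (standard error, SE, 0.19) and -1.99 at 72 h (SE 0.20), which left 25.1% of the 0 h level.

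*MSR1* (ENSBTAG00000002885) encodes the class A scavenger receptor, which binds modified lipoproteins and bacterial surfaces. The animals spanned 1.39 to 5.699 CPM around a median of 3.26 in the first cores, 0.798 to 2.25 CPM around 1.77 by 48 h, and 0.414 to 1.74 CPM around 1.102 by 72 h. All 7 animals fell, but the groups overlap, since animals 107, 201 and 202 at 72 h stood above animal 103 at 0 h. The log2 fold change was -1.06 at 48 h (SE 0.20) and -1.65 at 72 h (SE 0.21), which left 31.9% of the starting level.

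*MRC1* (ENSBTAG00000038048) carries the symbol of the mannose receptor, an endocytic lectin of tissue macrophages, and it took another course. The animals spanned 9.29 to 23.7 CPM around a median of 17.5 in the first cores and 9.79 to 13.9 CPM around 12.2 by 24 h. The span widened to 5.92 to 18.99 CPM around 11.6 by 48 h, and was 2.13 to 10.4 CPM around 6.13 by 72 h. At 48 h animal 103 was at 16.9 CPM, above its own 9.29 at 0 h, while the other 6 animals were below theirs. Its log2 fold change was -0.48 after 24 h (SE 0.24), -0.57 after 48 h (SE 0.25) and -1.30 after 72 h (SE 0.25), and the values at 0 and 72 h overlap.

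*CD14* (ENSBTAG00000015032) encodes the co-receptor that hands bacterial lipopolysaccharide to TLR4, and its decrease was the smallest of the 8. The animals spanned 4.85 to 11.7 CPM around a median of 7.59 in the first cores, 4.18 to 7.46 CPM around 5.51 by 48 h, and 2.40 to 4.74 CPM around 4.09 by 72 h. Every value at 72 h was below every value at 0 h, although by a narrow gap. The log2 fold change at 72 h was -1.06 (SE 0.16), so 48.0% of the 0 h level was left.

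*CSF1R* (ENSBTAG00000012771) encodes the receptor tyrosine kinase for the growth factors CSF1 and IL34, on which macrophages depend to survive. The first cores spanned 7.57 to 31.9 CPM around a median of 20.2, and those of 24 h spanned 9.21 to 19.3 CPM around 16.7. By 48 h the span was 3.396 to 12.9 CPM around 9.59, and by 72 h it was 1.58 to 9.22 CPM around 5.66. Animal 103 was the lowest at all 5 time points. The log2 fold change was -1.09 at 48 h (SE 0.19) and -1.79 at 72 h (SE 0.19), with 29.0% of the 0 h level left.

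*C1QA* (ENSBTAG00000007153), *C1QB* (ENSBTAG00000011196) and *C1QC* (ENSBTAG00000011193) encode the A, B and C chains of C1q, the protein that recognises antibody and dying cells and starts the classical complement pathway. In the RefSeq annotation of ARS-UCD2.0, which is not the build of the counts, the 3 genes lie side by side with 1 predicted gene between *C1QB* and *C1QC*. *C1QA* spanned 7.74 to 27.3 CPM around a median of 16.4 in the first cores and 11.9 to 17.8 CPM around 15.4 by 24 h. By 48 h it spanned 3.15 to 11.8 CPM around 9.03, and by 72 h 2.10 to 9.55 CPM around 5.65. Every animal was higher at 24 h than any was at 48 h, which held for *C1QB* too and for 0.164% of all genes, while the values at 0 and 72 h overlap. The range between animals at 24 h lay within that at 0 h.

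*C1QB* spanned 6.6 to 22.3 CPM around a median of 11.4 in the first cores, 3.58 to 9.45 CPM around 7.89 by 48 h, and 1.66 to 7.33 CPM around 4.73 by 72 h. *C1QC* spanned 5.6 to 17.6 CPM around a median of 11.8 in the first cores, 2.22 to 8.37 CPM around 6.14 by 48 h, and 1.15 to 5.11 CPM around 3.35 by 72 h. Besides *CD14*, it is the gene whose groups at 0 and 72 h do not overlap. Non-overlap of this kind was seen for 10.1% of all genes tested. The log2 fold changes at 72 h were -1.45 for *C1QA*, -1.39 for *C1QB* and -1.70 for *C1QC* (SE 0.21, 0.20 and 0.21), with 36.7%, 38.1% and 30.8% of the 0 h level left.

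**Figure D2:**
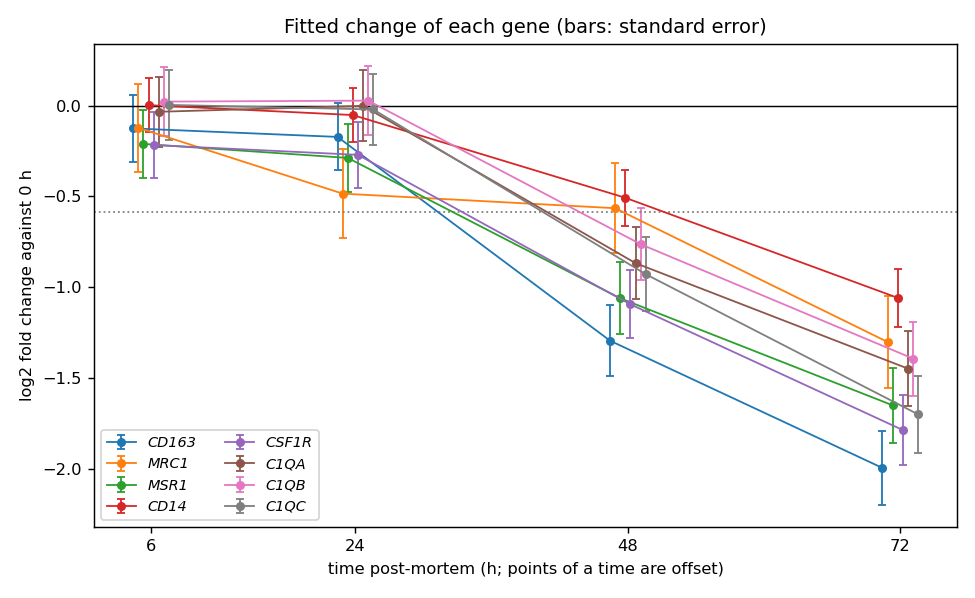
Fitted log2 fold change against 0 h (y axis) of the 8 genes by hours post-mortem (x axis), with bars of 1 standard error from the edgeR model of all 35 samples and a dotted line at the fold change threshold of 1.5 downward. All points at 6 and 24 h lie above the dotted line, and at 72 h the genes spread from -1.06 (*CD14*) to -1.99 (*CD163*).

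The balance between the genes shifted somewhat within samples. The log2 ratio of *C1QC* to *C1QB* changed by -0.29 ± 0.24 from 0 to 72 h (SD, n = 7) and fell in 6 of 7 animals, whereas that of *C1QA* to *C1QB* changed by -0.06 ± 0.17. The log2 ratio of *CD163* to *CD14* changed by -0.90 ± 0.43 and that of *CSF1R* to *CD14* by -0.75 ± 0.37, each downward in 7 of 7 animals. For *CD163* to *MRC1* the change was -0.59 ± 1.18, smaller than its spread between animals. These ratios come from the same contrasts that chose the genes and were not tested.

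The step from 6 h to 24 h holds none of the samples of the 48, 72 and 0 h contrasts by which the genes were listed, and it was tested in the same model. None of the 8 genes was DE in this step by edgeR's quasi-likelihood test, at an FDR between 0.85 and 1 and with no unadjusted p below 0.05, and DESeq2 and limma called none as well. In this step 0.54% of all genes were downregulated. The largest change was that of *MRC1*, a log2 fold change of -0.36 (95% confidence interval -0.87 to 0.14). For *CSF1R* it was -0.05 (-0.43 to 0.32), for *CD163* -0.05 (-0.43 to 0.33), for *C1QA* 0.03 (-0.36 to 0.43) and for *CD14* -0.05 (-0.36 to 0.25).

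The later steps share samples with the contrasts behind the list and are described only. From 24 to 48 h 6 of the 8 genes met the DE threshold, beside 1.88% of all genes downregulated, and 7 were lower in all 7 animals, which held for 10.6% of all genes. The log2 fold change was -1.12 for *CD163*, between -0.77 and -0.91 for *MSR1*, *CSF1R* and the C1q genes, -0.46 for *CD14* and -0.08 for *MRC1* (4 of 7 animals lower). From 48 to 72 h the 8 values lay closer together, from -0.55 (*CD14*) to -0.77 (*C1QC*), with -0.74 for *MRC1*. In this step 6 of the 8 met the threshold, beside 3.73% of all genes, and 7 were lower in all 7 animals (11.8% of all genes), but 3 did without animal 103 and 1 without animal 104. Without the animal block, none met it in either of these steps.

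Up to 24 h the animals moved in both directions, and their summed levels came closer together, from a range of 48.5 to 160 CPM in the first cores to 66.2 to 105 CPM by 24 h. At 6 h all 8 genes were higher than at 0 h in animal 103 and all 8 were lower in animal 107. At 24 h all 8 were higher in animal 103 and 7 of 8 in animal 202, and all 8 were lower in animals 104 and 201. The summed level at 24 h was 142% of that at 0 h in animal 103 and 133% in animal 202, against 57.4% in animal 104 and 58.3% in animal 201. Animal 103 had the lowest sum at 0 h (48.5 CPM) and animal 104 the highest (160 CPM), and both percentages are set against that same sample.

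By 72 h all 8 genes were below 0 h in each of the 7 animals, as were 22.9% of all genes tested. The size still differed: the sum stood at 18.3% of the 0 h level in animal 104, 29.7% in 101, 33.9% in 103, 34.4% in 201, 37.2% in 206, 46.5% in 107 and 61.4% in 202. In animal 104 the median log2 difference of the 8 genes was -2.80, and in animal 202 it was -0.73. *MRC1* did not follow this order: its largest decrease was in animal 206 (-3.01), where the median over the 8 genes was -1.32.

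**Figure D3:**
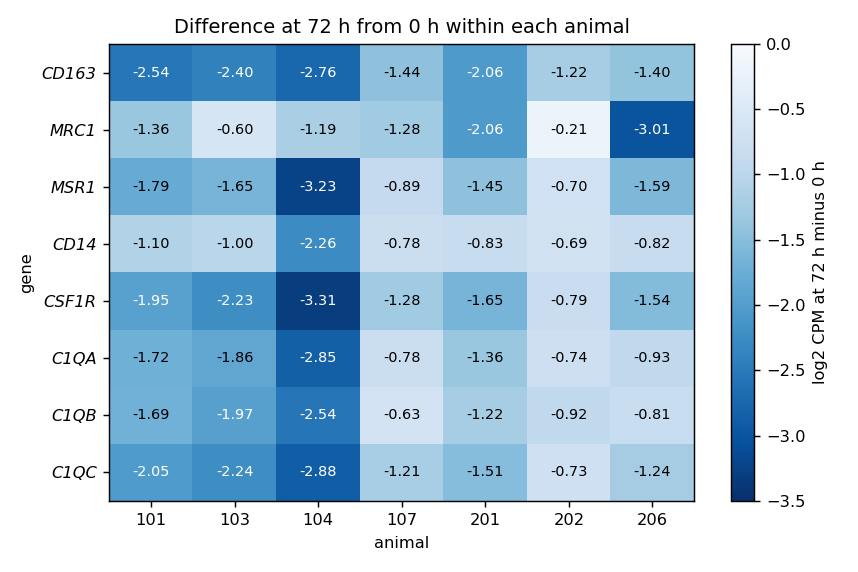
Difference in log2 CPM between 72 h and 0 h within each animal (columns) for each gene (rows), where darker blue is a larger decrease. All 56 values are below 0; the column of animal 104 holds most of the largest decreases, with -3.31 for *CSF1R*, and the column of animal 202 most of the smallest.

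Differences between animals over the whole series were tested with the animal term of the same model, a test chosen after the data were seen and not used to choose the genes. Animals differed in 7 of the 8 genes at an FDR below 0.05 (edgeR), which is close to the 82.5% of all genes for which this held. *MRC1* was the exception (FDR = 0.15). *CD163* had the widest spread: averaged over the time points, animal 107 lay 1.27 above and animal 103 lay -0.89 from the mean of the animals on the log2 scale (FDR = 5.9e-09). Animal 103 was the lowest for 7 of the 8 genes, and animal 104 the highest for 5.

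Apart from *MRC1*, the genes also rose and fell together from core to core. Each gene's log2 CPM was taken after subtraction of the animal mean and the time point mean, which removes the decline averaged over the animals and the standing differences between them. What is left includes how far an animal's own decline differed from the average, which was large for animals 104 and 202. Over the 35 samples, the 21 pairs among the 7 genes other than *MRC1* then had Pearson's r between 0.75 and 0.95, with a median of 0.86. *C1QA* and *C1QB* reached 0.95, *CD163* and *C1QC* 0.95 and *CSF1R* and *MSR1* 0.91. The 7 pairs with *MRC1* lay between -0.06 and 0.26, with a median of 0.05. All values of a sample come from 1 library. For the 14622 other genes, r was taken with the mean course of the 8, *MRC1* included, which is another measure than r of a pair. It had a median of -0.03, with the 5th and 95th percentiles at -0.35 and 0.36. Pairs of other genes were not analysed. These correlations are descriptions, with no test.

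**Figure D4:**
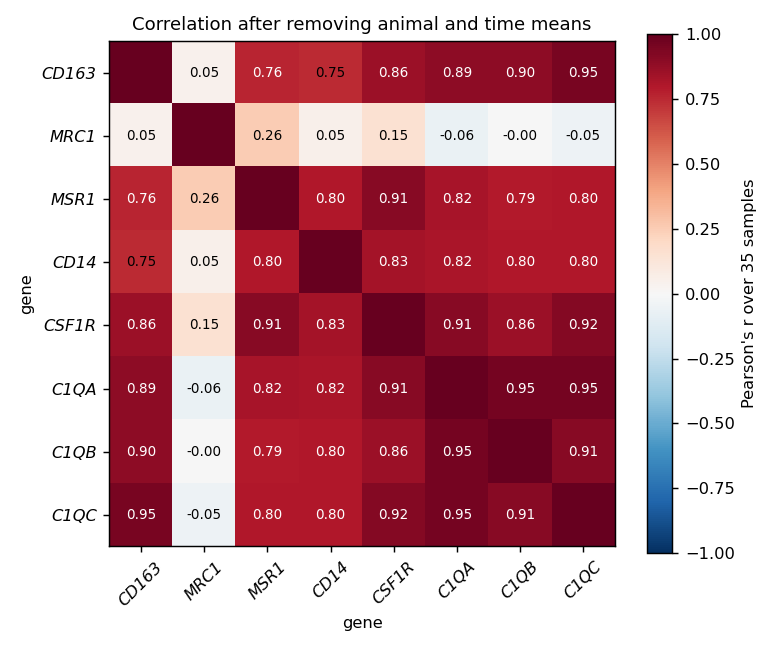
Pearson's r over the 35 samples between each pair of the 8 genes (rows and columns), from log2 CPM after removal of animal means and time point means; red is positive and white is 0. The 7 genes other than *MRC1* form a red block from 0.75 to 0.95, and the row and column of *MRC1* stay between -0.06 and 0.26.

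The genes with the most similar course were sought among the genes that carry a symbol in the study's lists and average at least 1 CPM, by r with the mean of the 8 after subtraction of animal means only. The 10 highest were *FOLR2*, *F13A1*, *AOC1*, *CR2*, *C5AR1*, *PLTP*, *BRB*, *CCL24*, *ITGAM* and *PTAFR*, with r from 0.93 to 0.98 over 35 samples. *FOLR2* (r = 0.98) encodes a folate receptor of tissue macrophages and had a log2 fold change of -1.60 at 72 h. *F13A1* (r = 0.97) encodes the A subunit of coagulation factor XIII, and *ITGAM* (r = 0.93) the integrin chain CD11b of myeloid cells. After time point means were removed too, r of these 10 genes was between 0.77 and 0.94.

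*MRC1* had other neighbours, which were looked up after its course had been seen. By the same measure the 10 genes closest to *MRC1* were *MOSPD1*, *PHKB*, *DCLRE1A*, *CAPZA2*, *STBD1*, *WWP1*, *BPGM*, *LPIN1*, *FBXL17* and *ART1*, with r from 0.90 to 0.92. *PHKB* encodes a subunit of phosphorylase kinase, which turns on glycogen breakdown, and averaged 406 CPM, while *STBD1* encodes a glycogen binding protein and averaged 201 CPM. No gene stood among both sets of 10 neighbours, and none of the other 7 macrophage genes was among those of *MRC1*. With only animal means removed, *MRC1* still had r of 0.56 to 0.69 with the other 7 genes, against 0.92 to 0.99 among those 7, and with time point means removed as well it had the low values given above. Whether the gene model takes in reads of another gene was not tested. Each count above falls by 1 gene where *MRC1* met the threshold and is left out.

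Of 15 other macrophage receptors and their adaptors, 7 have a symbol in the study's lists (*SIGLEC1*, *TIMD4*, *VSIG4*, *FOLR2*, *FCGR1A*, *FCGR2B* and *FCGR3A*). Such lists hold only genes found DE in these samples, so their counts are no independent evidence of a direction. None of the 7 was DE at 6 or 24 h, and all 7 were downregulated at 48 h (6.3% of all genes) and 72 h (15.4% of all genes), with a median log2 fold change of -1.60 at 72 h. *SIGLEC1*, the sialic acid receptor of resident macrophages, went from 1.08 ± 0.404 to 0.193 ± 0.0929 CPM (SD, n = 7; log2 fold change -2.48, SE 0.31). *TIMD4*, a receptor for phosphatidylserine on dying cells, changed by -2.21 (log2, SE 0.24), and *VSIG4*, a complement receptor, one of -1.75 (SE 0.23).

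Around C1q, 11 of 20 other complement genes have a symbol, and all 11 were downregulated at 72 h, beside 15.4% of all genes. The largest decreases were those of *CFB* (-1.60), *C3AR1* (-1.53), *C2* (-1.19) and *C5AR1* (-1.14). By 48 h 3 of the 11 were downregulated, beside 6.3% of all genes, namely *C3AR1* (log2 fold change -1.01), *C5AR1* (-0.74) and *CLU* (-0.90). *C3AR1* and *C5AR1* encode receptors for the fragments C3a and C5a on phagocytes, and *CLU* encodes clusterin, an inhibitor of the membrane attack complex. *C1R* and *C1S*, the proteases that form the C1 complex with C1q, had log2 fold changes of -0.24 and -0.41 at 48 h and of -0.77 (SE 0.12) and -1.09 (SE 0.12) at 72 h. *C1S* stood at 57.7 ± 9.94 CPM in the first cores and at 27.4 ± 6.85 CPM by 72 h. At 48 h *C7*, a component of the membrane attack complex, was at 0.11 (SE 0.13).

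Of the CSF1R axis and myeloid transcription factors, 3 of 11 have a symbol, and all 3 were downregulated at 48 h (6.3% of all genes) and 72 h (15.4%). *CSF1*, the ligand, went from 14.3 ± 5.06 to 8.12 ± 2.40 CPM at 72 h (log2 fold change -0.82, SE 0.14) and *CSF2RB*, a cytokine receptor chain, had -1.23. For the lipopolysaccharide pathway around *CD14*, only *LBP* of 10 genes has a symbol. *LBP*, the lipopolysaccharide binding protein, was low throughout with 1.2 ± 0.524 CPM at 0 h, and it was downregulated from 24 h onward, earlier than *CD14*. *IL34*, *SPI1*, *LY96*, *TLR4* and *HMOX1* have no symbol in these lists and were not analysed here.

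The haem and iron handling genes with a symbol went the other way. At 0 h they averaged 44.7 CPM (*BLVRB*), 1061 CPM (*FTH1*) and 63.3 CPM (*FTL*), against 13.3 CPM for the haemoglobin receptor gene *CD163*. Whole muscle was sequenced, and which cells their reads came from was not tested. The 3 of 10 with a symbol, *BLVRB*, *FTH1* and *FTL*, were all upregulated at 72 h, beside 9.8% of all genes. The ferritin heavy chain gene *FTH1* stood at 1061 ± 114 CPM in the first cores and 1787 ± 236 CPM by 72 h (log2 fold change 0.75, SE 0.04). Genes shared with other leukocytes included *CYBB*, the catalytic subunit of the phagocyte oxidase, with -1.67 (SE 0.17) at 72 h, and *ITGAM* with -1.57 (SE 0.22). Of this list 4 of 11 have a symbol, and 3 of the 4 were downregulated at 72 h (15.4% of all genes), all but *NCF1* (-0.32, SE 0.23). The dendritic cell receptor gene *XCR1* was at 0.308 ± 0.167 CPM at 0 h. It is the only 1 with a symbol of 10 antigen presentation and dendritic cell genes. It was downregulated already at 6 h (log2 fold change -1.25, SE 0.33), as were 0.185% of all genes, and had -1.01 (SE 0.32) at 72 h.

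**Figure D5:**
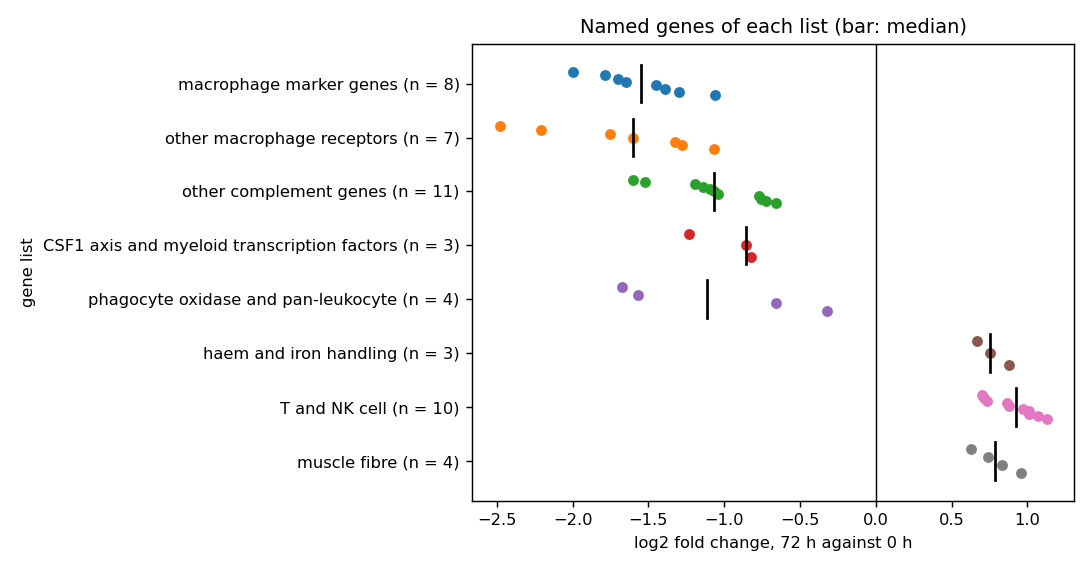
Log2 fold change at 72 h against 0 h (x axis) of the macrophage marker genes and of 7 other gene lists (rows), with 1 point per gene that has a symbol in the study's DE lists and a bar at the median. The macrophage genes have a median of -1.55 and the other macrophage receptors of -1.60, while the points of haem and iron handling, T and NK cell and muscle fibre genes all lie above 0.

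Markers of other cells moved too, some at other times, and their part in the decrease of the macrophage genes was not tested. Of 12 T and NK cell genes 10 have a symbol, and 9 were upregulated by 48 h (2.96% of all genes) and 10 by 72 h (9.8% of all genes), with a median log2 fold change of 0.93 at 72 h. Their summed level was 8.64 to 15.5 CPM at 0 h and 18.2 to 24.0 CPM at 72 h, so other leukocyte genes rose on this relative scale while the macrophage genes were lower. The 7 adipocyte genes, all with a symbol, had summed levels of 374 to 675 CPM at 0 h and 194 to 359 at 24 h. At 72 h their sum was 162 to 320 CPM. The most abundant at 0 h were *LPL* (229 CPM) and *PLIN4* (149 CPM), with log2 fold changes of -0.75 and -0.90 at 72 h. The median log2 fold change of the 7 was -3.77 at 24 h and -3.64 at 72 h. For the 8 macrophage genes it was -0.11 and -1.55. *ADIPOQ* was at 0 counts in 2 libraries and *LEP* in 6. All 7 were downregulated at 72 h (15.4% of all genes), and 5 of them already at 24 h (0.95% of all genes), when no macrophage gene was called.

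The 2 of 6 erythroid genes with a symbol, *HBB* and *HBA*, were at 0.0520 to 3.59 CPM in sum at 0 h, 0.126 to 72.1 at 48 h and 0.152 to 5.90 at 72 h, and *HBA* had 0 counts in 5 libraries. The neutrophil gene *S100A9*, 1 of 8, was at 0.138 to 0.723 CPM at 0 h and at 0.0742 to 1.91 at 48 h. By 72 h it was at 0 to 1.09 CPM, with 0 counts in 1 library. It was upregulated at 48 h (log2 fold change 0.99, SE 0.40), as were 2.96% of all genes. At 72 h it was not called (-0.29, SE 0.45). The 2 of 5 B cell genes, *CD79A* and *CD79B*, stood at 0.208 to 0.542 CPM in sum at 0 h and 0.450 to 2.28 at 72 h. *PDGFRA*, 1 of 7 fibroblast genes, was at 31.9 to 66.2 CPM at 0 h and 13.7 to 33.7 at 72 h (log2 fold change -1.01, SE 0.14). *MYOD1*, 1 of 3 satellite cell genes, was at 6.58 to 37.2 CPM at 0 h and 8.14 to 49.1 at 72 h. These ranges overlap, but paired by animal its log2 fold change at 72 h was 0.68 (SE 0.09). The summed muscle fibre genes stood between 52105 and 76656 CPM at 72 h, above every value at 0 h, and all CPM values are relative to the library. No endothelial, mast cell or macrophage cytokine gene of the lists has a symbol, and those lists were not analysed here.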

How the data were processed

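RNA-Seq libraries of 35 muscle cores (7 animals, 5 time points) were analysed. The authors trimmed the reads (Trimmomatic 0.39), mapped them to ARS-UCD1.2 (STAR 2.7.0f) and counted them over exons (featureCounts 1.6.4), and deposited raw counts per gene and sample; counting is described as strand specific, although the printed options include the unstranded one. The table holds Ensembl IDs only. Symbols came from the study's DE lists (3106 IDs), so only genes found DE have a name; a RefSeq table gave gene order.

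The study's model was followed in edgeR 4.0.16 (R 4.3.3): filterByExpr (minimum count 10), TMM (factors 0.846 to 1.11), animal as a block, the quasi-likelihood test and Benjamini-Hochberg adjustment over 14630 genes. Genes were called DE when the FDR was under 0.05 and the fold change exceeded 1.5. Log2 CPM used a prior count of 2. DESeq2 1.42.0 and limma 3.58.1 were alternatives. The script was tested on simulated data.

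The members of each list and the 8 genes were chosen with earlier results of these data known. Named are the 8 genes, the 10 nearest in course, and from other lists the DE genes with the largest changes at 72 h (up to 4 per list) plus known partners; other genes named, the test between animals, the correlations and the neighbours of *MRC1* were chosen after the values were seen. The animal number pairs the samples, since cores with one number come from one carcass: deviations from time point means had a median r of 0.58 within animals (0.29 to 0.77, 70 pairs of samples). No 2 libraries of a time point agreed within sampling noise (lowest chi-square per gene 30.0, 105 pairs). RNA integrity, which the study measured in its samples, was not analysed here, and its part in the decrease was not tested. The values of 1 gene of the lists are not reported here.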

Additional observations from a re-analysis of the deposited data

Results flagged for a closer look

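A sample that stood apart from the other 6 of its time point by Dixon's test was found in 3 of the 40 groups tested (8 genes at 5 time points); chance alone gives about 1 in 20, or 2 groups. At 48 h animal 103 was the lowest for *C1QA*, at 3.15 CPM against 8.03 to 11.8 in the others, and for *C1QB*, at 3.58 CPM against 6.88 to 9.45. At 72 h animal 206 was the lowest for *MRC1*, at 2.13 CPM against 5.57 to 10.4. Without animal 103, 7 of the 8 genes were called at 48 h against 0 h, and without animal 206 it was 6, the same number as with all animals. Of all genes, 930 of 14676 were called lower without animal 103 and 757 of 14635 without animal 206.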

How the results depend on the processing

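Against 0 h, the number of the 8 genes called lower at 72 h was 8 under every alternative run, and at 6 and 24 h it was 0 under each, as in the step from 6 to 24 h. At 48 h against 0 h it was 6, and between 6 and 7 when each animal was left out. It was 1 when tested against the fold change of 1.5 itself (glmTreat), where *CD163* remained. In that run 120 of all 14630 genes were called lower, against 922 in the main run. From 24 to 48 h it was 6, and 5 to 6 with an animal left out. It was 0 with glmTreat and 0 with no animal as a replicate block. In each of these runs 0 of all 14630 genes were called lower, so the loss is not particular to the 8. From 48 to 72 h it was 6, beside 545 of all genes called lower. It was 0 with glmTreat (8 of all genes) and 0 without the block (317 of all genes). With an animal left out it was 1 to 7. It was 3 without animal 103 (384 of all genes) and 1 without animal 104 (386 of all genes). The block changed no other count of calls.

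The log2 fold changes of the 8 genes at 72 h against 0 h stayed between -2.16 and -0.90 over 19 alternative settings. These gave 152 values, all called. From 6 to 24 h the sign changed in 21 of the 152 values, with no call in any, while *MRC1* stayed between -0.49 and -0.19. With limma *C1QA* was at -0.011 and *C1QB* at -0.053. Without the block *CD163* was at 0.019 and *C1QB* at -0.0098. With an animal left out *C1QA* ranged from -0.062 to 0.15, *C1QB* from -0.10 to 0.13, *C1QC* from -0.15 to 0.055, *CD14* from -0.15 to 0.081, *CD163* from -0.16 to 0.033, *CSF1R* from -0.12 to 0.045 and *MSR1* from -0.16 to 0.057. The cause of these changes was not tested. Scaling by library size alone moved the median of all genes to -0.16 at 72 h, and 8 of the 8 genes were then called at 48 h. With this scaling 1254 of all 14630 genes were called lower at 48 h, against 922 with TMM. *MSR1* had the lowest counts of the 8, 14 to 315 per library. Its SE at 72 h against 0 h was 0.21, within the 0.16 to 0.25 of the 8 genes.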
